A study of Mus musculus with 12 samples.

Results

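Livers of chow-fed mice given a vector designed against Aatf were compared with livers of chow-fed mice given the empty vector. The comparison took every library with those labels, 6 of the 12 in the study: 3 labelled chow siAATF and 3 labelled chow null. All mice were male C57BL/6, with C57Bl/6NCrl named as the substrain, and both groups were put on chow and normal water when aged 6 weeks. Following 12 weeks of diet the mice received AAV8-TBG-siAATF or AAV8-TBG-Null by tail vein, and their livers were collected a further 12 weeks later. Both groups therefore carried AAV8, a liver-tropic viral vector, with the thyroxine-binding globulin (TBG) promoter, which is active in hepatocytes. The remaining 6 libraries came from mice on a Western diet with sugar water and the same pair of vectors. The labels number the replicates but do not say that each is a separate mouse, so a p-value here reflects spread among samples that may be technical.

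Aatf encodes a nucleolar protein that works with Ngdn and Nol10 in the small-subunit processome, the assembly that makes the small ribosomal subunit, and it also acts as a cofactor of transcription, in p53 and stress responses among others. Hepatocytes make most plasma proteins and carry out lipid, bile acid and drug metabolism. On chow the liver lacks most of the fat, inflammation and scarring that a Western diet brings.

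No gene passed the threshold on chow. The values of Aatf itself overlapped between the groups, and hepatocyte, macrophage, stellate and endothelial marker genes, ribosomal protein genes and the genes of lipid and bile acid metabolism all stayed short of the threshold. Of 11934 genes tested, 0 (0%) had an adjusted p under 0.05 (edgeR's quasi-likelihood test p adjusted by Benjamini-Hochberg, smallest adjusted p = 1). Before adjustment, 127 genes (1.06%) were higher and 158 (1.32%) lower in the siAATF-labelled libraries at p under 0.05. DESeq2 called 1 gene, Igfbp5, and limma-voom called 0. With no low-count filter edgeR called 33 of 22289 genes, and these included Igfbp5, Col5a2, Dbp and Rn7s2 (higher) and Mt1, Mt2, Cxcl1, Rad51b, Slc37a1, S100a9 and Gm39583 (lower). In 507 genes (4.25%) all 3 siAATF-labelled libraries lay above all 3 null libraries, and in 515 (4.32%) all lay below. The values below are therefore descriptions of levels: each log2 fold change is siAATF-labelled minus null with its SE after the ± sign, and every one on chow had an adjusted p of 1 by edgeR with the filter.

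The absence of calls did not come with tight limits for every gene. The 95% interval of the log2 fold change lay within 1 in either direction, a doubling or halving, for 6370 genes (53.4%), and within 2 for 11078 (92.8%). The median size of the log2 fold change was 0.221 on chow and 0.299 on the Western diet, with median standard errors of 0.333 and 0.343. Both standard errors come from 1 fit to all 12 libraries with a shared estimate of each gene's spread. They therefore do not compare the spread of libraries on the 2 diets. A log2 fold change beyond 1 in either direction was seen for 314 genes (2.63%) on chow and 1028 (8.61%) on the Western diet.

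The 6 libraries held 2245022 to 13469819 counts, and the 18S ribosomal RNA gene took from 1.54% to 41.4% of them. Chow null replicate 2 was the shallowest and stood apart: on a first component holding 49.4% of the variance of log2 CPM (counts scaled to library size) it lay at 78.8 and the other 5 libraries between -32.2 and -1.72. Its Spearman correlation across genes with chow null replicate 1 was 0.915, the lowest of any pair, and the highest, 0.978, was between siAATF-labelled replicates 2 and 3. A floor of 3 counts equalled 0.185 to 1.69 CPM. Without chow null replicate 2 the count of genes past the adjusted threshold was still 0, and 560 genes had an unadjusted p under 0.05. Hepatocyte products were abundant in every library. Alb, which encodes serum albumin, stood at 40600, 59800 and 48200 CPM in null and 45800, 48200 and 43700 CPM in siAATF-labelled libraries. In bulk tissue, fewer cells of a type and less RNA per cell cannot be told apart.

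Aatf (GRCm39 chromosome 11, 84313682 to 84404433, minus strand) was the first check of the labels. It stood at 36.8, 26.5 and 31.6 CPM in null replicates 1 to 3 and at 39.2, 24.6 and 40.5 CPM in the siAATF-labelled replicates. The groups overlapped, and the siAATF-labelled libraries held both the lowest and the highest value. The log2 fold change was 0.11 ± 0.24 (SE), with a 95% interval from -0.40 to 0.63. Reads over introns are counted with those over exons, and liver cells other than hepatocytes add to the level, so the count need not follow mature Aatf RNA in hepatocytes. On the Western diet Aatf had a mean of 26.3 CPM in null and 27.5 CPM in siAATF-labelled libraries (0.06 ± 0.25), also short of the threshold. Directions below, on either diet, rest on the vector label and not on a measured loss of Aatf.

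Aatf's partners overlapped between the groups as well. Ngdn stood at 11.2, 32.2 and 15.3 CPM in null and 20.1, 14.3 and 18.4 CPM in siAATF-labelled libraries, a log2 fold change of -0.08 ± 0.35. Nol10 stood at 11.5, 15.8 and 14.7 CPM against 14.0, 7.76 and 12.1 CPM, a log2 fold change of -0.32 ± 0.29. Both ranges overlapped. Of 29 tested genes of the Aatf complex and processome, 15 were above 0 and 14 below, with a median log2 fold change of 0.03 against -0.03 over all genes.

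Imp3 and Tbl3, which encode processome proteins, were the members that separated upward. Imp3 stood at 14.1, 16.4 and 18 CPM in null and 24.6, 27.0 and 31.4 CPM in siAATF-labelled libraries. Every siAATF-labelled value lay above every null value, with a log2 fold change of 0.78 ± 0.23. Tbl3 stood at 14.1, 15.2 and 13.8 CPM against 19.3, 22.7 and 23.8 CPM, also with no overlap (0.62 ± 0.27). With 2 of 29 members above and 1 below without overlap, the list's shares should be read against 4.25% and 4.32% of all genes. Over all settings tried, Imp3 ran from 0.68 to 0.89 and Tbl3 from 0.59 to 0.78 on the log2 scale.

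**Figure D1:**
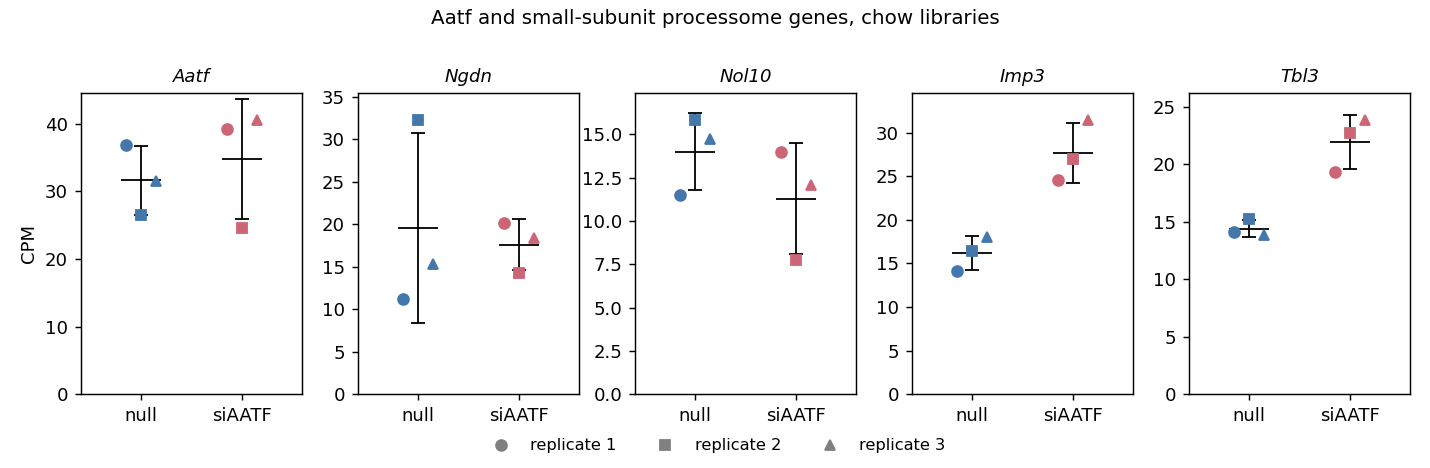
CPM of Aatf and 4 other genes of the small-subunit processome in the 6 chow libraries, by vector label; points are libraries (marker shape gives the replicate number), the horizontal mark is the mean and the bar is the SD over 3 libraries. Aatf, Ngdn and Nol10 overlap between groups, and the 3 siAATF-labelled values of Imp3 and Tbl3 lie above all null values.

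Lists for the rest of the ribosome-making machinery and for p53 had medians near 0. Of 22 tested nucleolar and RNA polymerase I genes, 0 had an unadjusted p under 0.05, with a median log2 fold change of 0.05. Rrn3, a polymerase I initiation factor, was lower without overlap, at 18.1, 16.4 and 16.5 CPM in null and 13.8, 14.5 and 9.82 CPM in siAATF-labelled libraries (-0.42 ± 0.28). The 34 cytosolic ribosomal protein genes ran from -0.35 to 0.32, and 33 of their 34 intervals lay within 1. Among 21 p53 targets 0 had an unadjusted p under 0.05; Cdkn1a, the cell cycle inhibitor p21, stood at 4.57, 10.7 and 5.31 CPM against 7.67, 2.71 and 7.32 CPM (-0.16 ± 0.61). Components of the RNA interference machinery, which would process a silencing RNA, numbered 13 tested with a median of -0.12, and Tarbp2, a Dicer partner, was the one higher without overlap (0.61 ± 0.39).

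The smallest p of the whole comparison belonged to a gene of no list. Igfbp5 (chromosome 1, 72897224 to 72914024, minus strand), which encodes a secreted insulin-like growth factor binding protein, was low in every null library. Its levels were 2.74, 2.26 and 1.65 CPM in null and 15.1, 16 and 7.52 CPM in siAATF-labelled libraries, from 47 and 353 counts in all. The lowest siAATF-labelled library stood well above the highest null library, with a log2 fold change of 2.56 ± 0.51 (95% interval 1.48 to 3.63). DESeq2 gave it an adjusted p of 0.0227, and edgeR's quasi-likelihood test an adjusted p of 1, though edgeR called it with no low-count filter. Across the settings tried its log2 fold change ran from 2.33 to 2.88. On the Western diet its log2 fold change was 0.52, short of the threshold. Other IGF binding proteins did not share its level: Igfbp1 was at -0.52 ± 0.66, Igfbp2 at -0.36 ± 0.67, Igfbp3 at 0.17 ± 0.47 and Igfbp4 at 0.25 ± 0.26.

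Heat shock genes were the list with the highest median log2 fold change among those with at least 15 members tested, at 0.32. Heat shock proteins are chaperones that keep other proteins folded, and heat shock factor switches on their genes through heat shock elements. Hspb1 (chromosome 5, 135916773 to 135918417, plus strand), a small heat shock protein, stood at 8.46, 8.47 and 9.05 CPM in null and 24.6, 17.4 and 16.9 CPM in siAATF-labelled libraries. No values overlapped, and the log2 fold change was 1.17 ± 0.33. Hsp90ab1, a constitutive Hsp90, was at 685, 551 and 404 CPM against 1060, 692 and 889 CPM, also without overlap (0.69 ± 0.26). Hspa1b, an inducible Hsp70, stood at 7.20, 2.82 and 3.48 CPM against 5.29, 9.97 and 18.6 CPM, where siAATF-labelled replicate 1 lay below the highest null library (1.24 ± 0.45). Its near-identical copy Hspa1a was not tested, and reads of the pair may be split or dropped in counting. Of the 15 heat shock genes tested, 12 were above 0, 3 had an unadjusted p under 0.05, all higher, and 3 separated upward without overlap, beside 1.06% and 4.25% of all genes. The constitutive chaperone Hspa8 was at 0.32 ± 0.24, and mitochondrial Hspd1 at 0.01 ± 0.24. The summed level of the list overlapped, at 2060, 1710 and 1310 CPM in null and 2420, 1980 and 2300 CPM in siAATF-labelled libraries. Over all settings Hspb1 ran from 0.95 to 1.29.

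The 250 bases before the RefSeq start of Hspb1 and Hspa1b are shown because these were the members with the larger fold changes. They come from the RefSeq promoter table on GRCm38.p6, an older build than the GRCm39 of the counts, at chr5:135887669-135887918 on the plus strand for Hspb1 and chr17:34959239-34959488 on the minus strand for Hspa1b. Capitals mark GAANNTTC, the core of a heat shock element, which is its own reverse complement, so both strands are covered. Of 32536 windows of this length 6.72% held it at least once and 0.227% at least 2 times. Hspb1 had it at 2 places and Hspa1b at 1. A match is a string of letters and not a measured binding site.
Hspb1: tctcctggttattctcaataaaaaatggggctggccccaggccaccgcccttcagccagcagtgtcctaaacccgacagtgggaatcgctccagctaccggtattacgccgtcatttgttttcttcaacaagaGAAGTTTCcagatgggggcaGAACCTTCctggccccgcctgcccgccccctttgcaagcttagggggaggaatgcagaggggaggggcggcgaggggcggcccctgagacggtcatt
Hspa1b: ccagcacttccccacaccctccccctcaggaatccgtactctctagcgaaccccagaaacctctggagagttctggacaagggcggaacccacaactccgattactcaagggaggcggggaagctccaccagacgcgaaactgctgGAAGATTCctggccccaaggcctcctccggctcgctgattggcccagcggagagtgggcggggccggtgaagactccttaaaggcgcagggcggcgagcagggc

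Metallothionein genes were lower in the siAATF-labelled libraries than in 2 of the 3 null libraries. Metallothioneins bind zinc and copper, and their genes are switched on by metals and glucocorticoids through the factor MTF1 and the glucocorticoid receptor. Mt2 (chromosome 8, 94899246 to 94900195, plus strand) stood at 1.26, 18.1 and 23.5 CPM in null and 0.794, 0.739 and 0 CPM in siAATF-labelled libraries, from 313 and 15 counts. The groups did not overlap, but null replicate 1 was closer to the siAATF-labelled libraries than to the other null libraries. The log2 fold change was -4.56 ± 1.44 (95% interval -7.77 to -1.34). Mt1 (chromosome 8, 94905214 to 94906955, plus strand) stood at 8.46, 81.9 and 57.0 CPM against 14.8, 4.86 and 6.27 CPM, where null replicate 1 lay below siAATF-labelled replicate 1 (-2.53 ± 0.94). Of 17 metallothionein and iron genes, 3 had an unadjusted p under 0.05, all lower, beside 1.32% of all genes; the third was Smad7, an inhibitor of TGF-beta signalling, at 15.7, 51.4 and 54.9 CPM against 23.3, 21.1 and 22.2 CPM. Null replicate 1 was the lowest null library for all 3. Over all settings Mt2 ran from -5.39 to -3.69. Hamp, the iron hormone hepcidin, was at 325, 546 and 547 CPM against 371, 219 and 238 CPM (-0.78 ± 0.40).

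The 250 bases before the listed RefSeq starts of Mt1 and Mt2 are shown because metal response elements in this pair of promoters are textbook targets of MTF1. They are from the same table, at chr8:94178839-94179088 for Mt1 and chr8:94172368-94172617 for Mt2, both plus strand. Capitals mark TGCNCNC on either strand, which overlaps no other motif searched. It is a loose form of the metal response element core that takes any base at each N, so not every match is such a core. The string is short: 44.7% of 32536 windows held at least 1, 15.3% at least 2 and 0.347% at least 5. The Mt2 window had 5 and the Mt1 window had 1, the nearest to the listed start of each at 50 and 23 bases before it. The listed starts of the pair lie further apart than their starts in the counts. The Mt1 window may therefore lie inside the counted span of Mt1, and its 1 match need not be the full number in that promoter.
Mt1: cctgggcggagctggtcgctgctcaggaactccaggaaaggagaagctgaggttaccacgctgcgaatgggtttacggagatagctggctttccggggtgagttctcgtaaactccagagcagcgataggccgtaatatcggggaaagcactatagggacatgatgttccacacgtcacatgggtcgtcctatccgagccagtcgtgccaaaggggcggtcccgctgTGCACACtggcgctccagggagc
Mt2: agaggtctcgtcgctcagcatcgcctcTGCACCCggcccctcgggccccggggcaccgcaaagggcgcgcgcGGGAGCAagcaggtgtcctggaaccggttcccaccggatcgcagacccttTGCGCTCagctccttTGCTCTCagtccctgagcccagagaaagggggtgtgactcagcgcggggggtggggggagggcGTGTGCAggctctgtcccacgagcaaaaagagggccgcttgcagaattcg

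Among lower genes the smallest p belonged to Gm39583, a predicted gene, which stood at 14.4, 7.91 and 23.1 CPM in null and 3.44, 4.74 and 1.88 CPM in siAATF-labelled libraries, with no overlap (-2.16 ± 0.52). The naming rule leaves out predicted genes, and among the 10 other lower genes that it picked by p was Fmn1, an actin nucleator, which stood at 14.1, 18.6 and 15.9 CPM in null and 6.61, 7.63 and 10 CPM in siAATF-labelled libraries, with no overlap (-0.98 ± 0.27). Cxcl1, a neutrophil-attracting chemokine, stood at 3.20, 16.4 and 13.8 CPM against 0.529, 0.431 and 2.51 CPM, with no overlap (-3.37 ± 1.04). Rad51b, a DNA repair gene, stood at 9.94, 24.3 and 45.6 CPM against 9.79, 4.68 and 9.82 CPM, where the lowest null library was only just above the highest siAATF-labelled one (-1.78 ± 0.49). Ube2e2, a ubiquitin-conjugating enzyme, was at 110, 106 and 169 CPM against 83.3, 66.0 and 78.6 CPM (-0.76 ± 0.25). Besides these and Mt2, the 10 held Slc37a1 (-1.83), Slc9a7 (-1.38), Zup1 (-1.46), Copg2 (-0.86) and Cyria (-1.08), and 9 of the 10 separated without overlap, Slc37a1 being the exception. These genes were picked by their p, so their number is no support.

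The 10 higher genes held Igfbp5, Hspb1 and Imp3 and 7 more. Abhd2, a lipid hydrolase, stood at 89.6, 72.8 and 69.9 CPM in null and 219, 105 and 119 CPM in siAATF-labelled libraries (0.92 ± 0.30). Col5a2, a fibrillar collagen, was at 4.80, 2.82 and 4.44 CPM against 20.1, 4.19 and 14.0 CPM, so that siAATF-labelled replicate 2 lay among the null libraries (1.51 ± 0.45). Saa3, an acute phase protein made mainly outside hepatocytes, was at 1.83, 1.69 and 2.26 CPM against 7.67, 2.59 and 6.27 CPM (1.37 ± 0.46). Rn7s2, a signal recognition particle RNA gene, was at 17.8, 59.9 and 33.7 CPM against 79.9, 67.3 and 143 CPM (1.43 ± 0.45). The rest were Fbxw9 (0.82), Hes6 (0.86) and the pseudogene Scp2-ps2 (1.27).

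**Figure D2:**
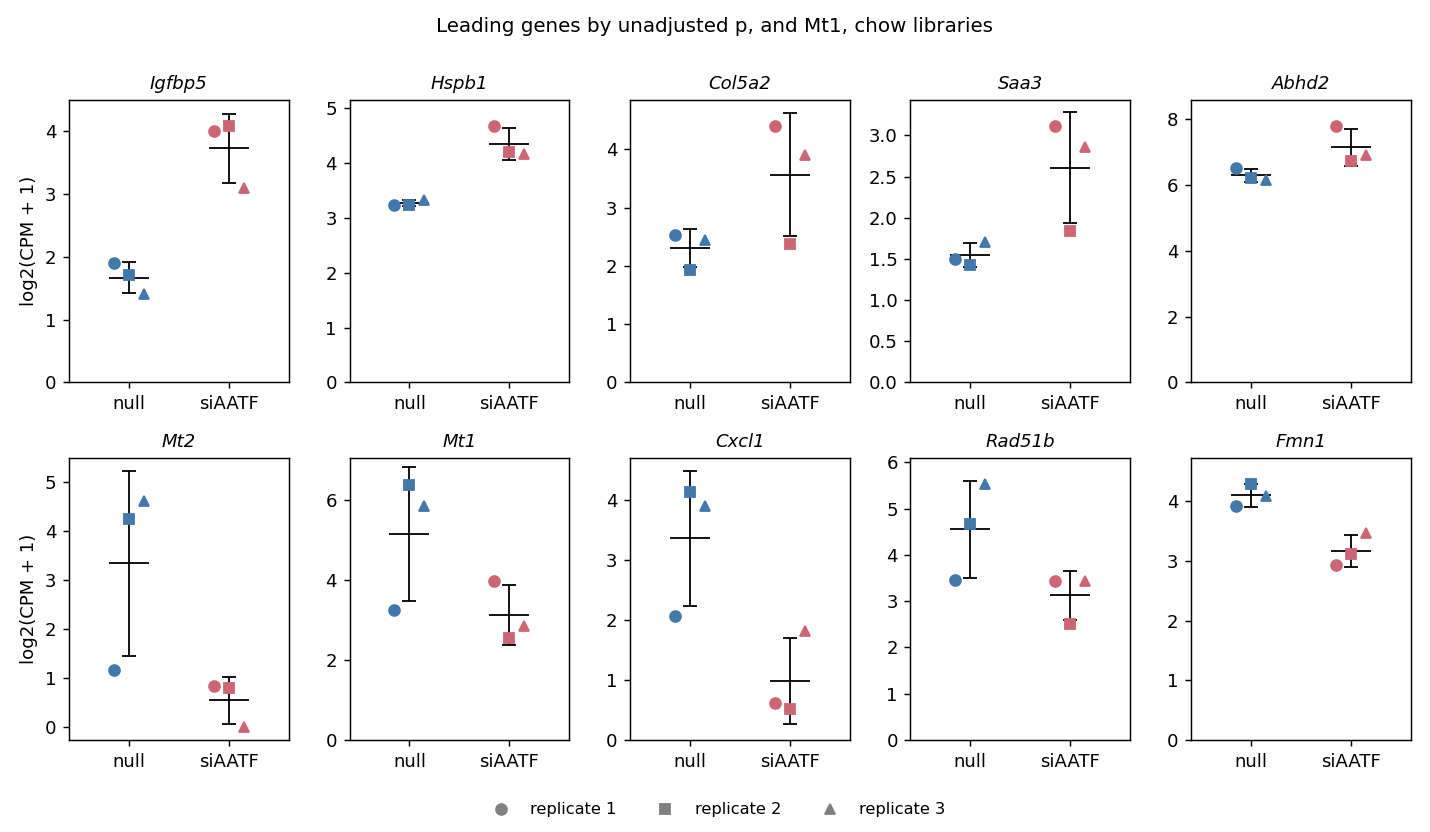
log2(CPM + 1) of 9 of the genes that the naming rule picked by their unadjusted p on chow, and of Mt1, in the 6 chow libraries; the top row is higher and the bottom row lower in siAATF-labelled libraries, points are libraries, the horizontal mark is the mean and the bar is the SD over 3 libraries. Igfbp5 and Hspb1 show no overlap, and null replicate 1 lies low for Mt2, Mt1 and Cxcl1.

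Clock genes gave 4 members with an unadjusted p under 0.05 of 22 tested, 3 higher and 1 lower, beside 1.06% and 1.32% of all genes, but the siAATF-labelled libraries disagreed among themselves. The liver clock runs on Bmal1 (Arntl) with Clock or Npas2, which drive the Per, Cry and Nr1d genes and outputs such as Dbp, and Nr1d proteins in turn repress Arntl. Dbp stood at 2.06, 5.08 and 4.27 CPM in null and 2.12, 26.5 and 13.4 CPM in siAATF-labelled libraries (2.05 ± 0.74). Nr1d1 stood at 34.1, 49.7 and 53.8 CPM against 29.4, 100 and 75.9 CPM (0.59 ± 0.46). Arntl, which peaks opposite to these genes, stood at 32.1, 30.5 and 32.0 CPM against 42.1, 10.6 and 17.8 CPM (-0.46 ± 0.37).

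For Dbp and Nr1d1, siAATF-labelled replicates 2 and 3 lay above all null libraries and replicate 1 among the lowest, and Arntl had the reverse order. Per2 stood at 2.74, 0 and 4.09 CPM against 1.59, 9.36 and 6.48 CPM (1.11 ± 0.54), with the same split. Per3 was at 0.86 ± 0.40, Tef, an output like Dbp, at 0.44 ± 0.33, and Per1 at -0.00 ± 0.40. Npas2 was lower in all 3, at 7.77, 11.9 and 8.53 CPM against 5.56, 3.88 and 4.81 CPM (-0.97 ± 0.41). The hour of collection is not given in the sources used here, so its part in these values was not tested.

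**Figure D3:**
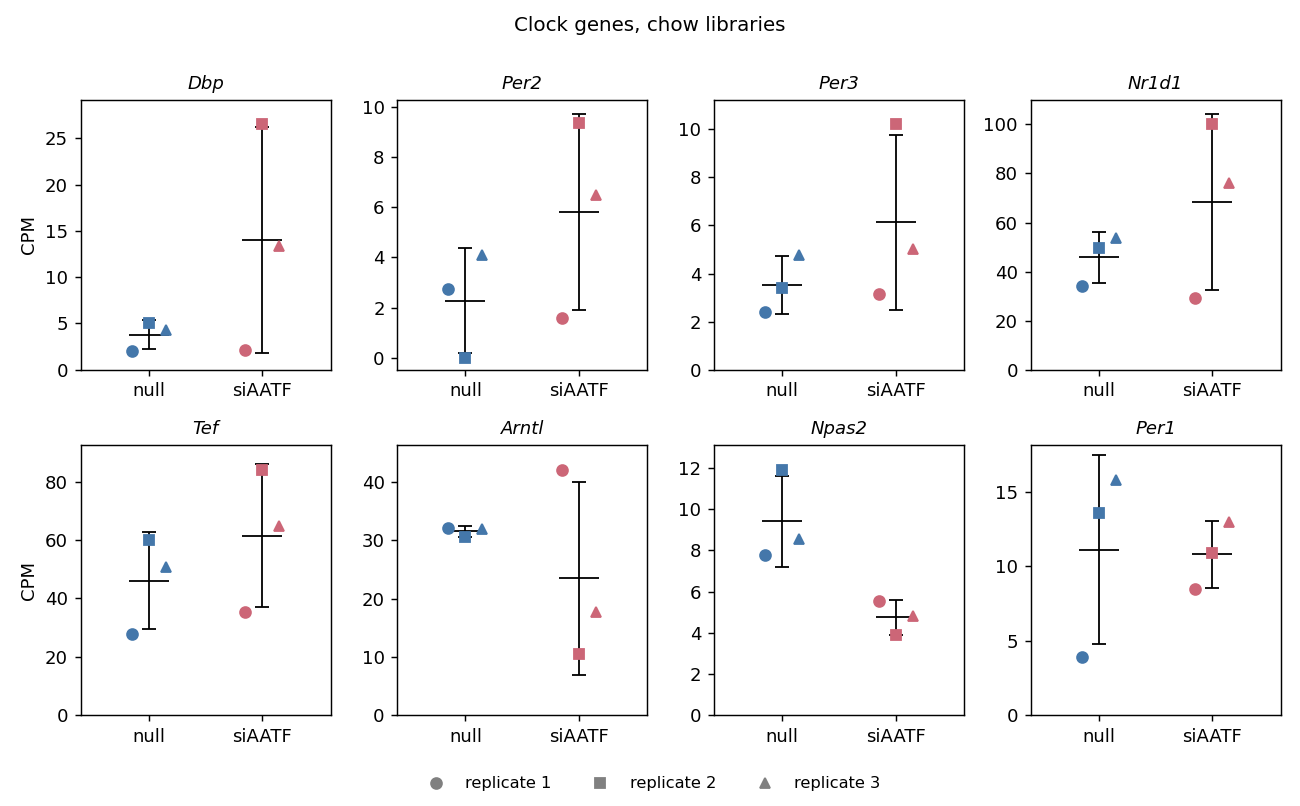
CPM of 8 clock genes in the 6 chow libraries, by vector label, with the mean and the SD over 3 libraries; marker shape gives the replicate number. In the siAATF-labelled group, replicates 2 and 3 are high for Dbp, Per2 and Nr1d1 and low for Arntl, and replicate 1 is the reverse.

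No lipid gene passed the threshold on chow, and the list medians lay near 0, while single genes ranged more widely. The 21 tested genes of lipid droplets and lipid uptake had a median of 0.07 and ran from -0.86 to 2.83. Only 6 of their intervals lay within 1. Fasn, fatty acid synthase, stood at 192, 493 and 348 CPM in null and 194, 591 and 450 CPM in siAATF-labelled libraries (0.26 ± 0.38), and Scd1, a desaturase, was at 0.10 ± 0.37. Plin2, which coats lipid droplets, was at 0.00 ± 0.71, Cidec, which fuses them, at -0.03 ± 1.05 and Cd36, a fatty acid importer, at 0.55 ± 0.50. For these 3 genes the intervals reached beyond 1 on the log2 scale. The fit shares 1 estimate of a gene's spread over all 12 libraries, so spread on the Western diet enters these chow intervals. Plin2 stood at 548, 671 and 502 CPM in chow null and 559, 622 and 541 CPM in chow siAATF-labelled libraries. In the Western siAATF libraries its mean was 729 CPM with an SD of 932 CPM. Tkfc, an enzyme of fructose metabolism, was the one synthesis gene with an unadjusted p under 0.05, at 71.4, 87.5 and 77.3 CPM against 99.0, 119 and 133 CPM, without overlap (0.57 ± 0.26). Fads2, a desaturase, was also higher without overlap (0.40 ± 0.26).

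Fatty acid synthesis had 23 genes tested with a median of 0.17, and fatty acid oxidation and ketone synthesis 30 with a median of 0.17; neither list had a member that passed. Bdh1, a ketone enzyme, was higher without overlap at 166, 230 and 172 CPM against 238, 251 and 282 CPM (0.44 ± 0.26). Of 24 cholesterol genes 0 had an unadjusted p under 0.05, but siAATF-labelled replicate 1 was low for the pathway. Idi1, the isopentenyl diphosphate isomerase of cholesterol synthesis, stood at 28.3, 14.7 and 15.1 CPM against 3.17, 15.9 and 14.4 CPM. In siAATF-labelled replicate 1 the median member deviated from its mean over the 6 libraries by -0.77 on the log2 scale, and in replicate 2 by 0.49.

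Bile acid genes had a median of -0.15 over 21 tested. Cyp7a1, the rate-limiting enzyme of bile acid synthesis, was at 18.6, 19.8 and 22 CPM against 27.3, 14.0 and 14.2 CPM (-0.15 ± 0.38). Cyp2c70, which makes the muricholic acids of mice, was lower without overlap at 340, 274 and 300 CPM against 210, 220 and 164 CPM (-0.62 ± 0.37). G6pc, which releases glucose, stood at 268, 415 and 350 CPM against 463, 506 and 465 CPM, without overlap (0.47 ± 0.35), and Pck1 was at 0.13 ± 0.30.

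Male-biased genes, which follow pulsed growth hormone, were highest in chow null replicate 1. Their summed level was 29000 CPM in that library and 14700 to 21000 CPM in the other 5. Mup20 stood at 7700, 1190 and 1600 CPM in null and 4720, 2820 and 2740 CPM in siAATF-labelled libraries (-0.03 ± 0.70). Reads of the near-identical Mup copies may be split or dropped in counting. Cyp7b1 was at 1330, 292 and 511 CPM against 446, 592 and 508 CPM (-0.46 ± 0.47). Hsd3b5, a male-specific steroid enzyme, stood at 258, 230 and 197 CPM against 187, 270 and 255 CPM (0.06 ± 0.35).

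Inflammatory and cell type markers varied with single libraries. Acute phase genes had a median of -0.28 over 28 tested. Saa1 stood at 106, 71.7 and 65.2 CPM in null and 45, 107 and 310 CPM in siAATF-labelled libraries, and Lcn2 at 10.9, 13.0 and 19.1 CPM against 1.59, 7.63 and 62.9 CPM. Both were highest in siAATF-labelled replicate 3 and lowest in replicate 1. Neutrophil markers, a list that holds Lcn2, summed to 16.1, 24.3 and 29.0 CPM in null and 2.38, 9.05 and 69.8 CPM, and Lcn2 made up most of the sum in siAATF-labelled replicate 3. Only 4 of 10 neutrophil markers were tested, with a median of -1.55, 1 above 0 and 3 below. S100a9, which pairs with S100a8, was at 1.94, 1.13 and 3.05 CPM against 0, 0.185 and 1.46 CPM (-2.32 ± 1.51), and Csf3r, the G-CSF receptor, at 2.29, 5.65 and 5.75 CPM against 0.794, 1.17 and 3.55 CPM (-1.31 ± 0.67). Both ranges overlapped. S100a8, a defining neutrophil gene, was at 11 counts over the null libraries and 3 over the others, with 0 in siAATF-labelled replicates 1 and 2. Their part in the acute phase levels was not tested.

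Kupffer cell and macrophage markers had a median of -0.33 over 14 tested, 2 above 0 and 12 below, and summed to 627, 564 and 425 CPM in null and 554, 397 and 545 CPM in siAATF-labelled libraries. Clec4f, specific to Kupffer cells, stood at 67, 116 and 62.5 CPM against 57.9, 42.7 and 97.2 CPM. Lipid-associated macrophage genes, which mark fatty inflamed liver, had a median of 0.13 over 17 tested. Their most specific members were near 0 in both groups: Gpnmb was at 5 counts in null and 6 in siAATF-labelled libraries, Trem2 at 3 and 4, and Mmp12 at 1 and 1. Stellate markers had a median of 0.05, endothelial markers -0.19, cholangiocyte markers -0.35 and red cell genes 0.60. Red cell genes were highest in siAATF-labelled replicates 2 and 3, whose summed level was 126 and 135 CPM against 44.2 CPM in replicate 1 and 56.9 to 76.2 CPM in null. T, B and NK cell markers were mostly below the filter, with 1 of 20 tested.

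Col1a1, the main scar collagen, stood at 3.20, 18.1 and 5.22 CPM in null and 17.7, 9.17 and 17.6 CPM in siAATF-labelled libraries (0.99 ± 0.82). Null replicate 2 overlapped the others. Loxl1, a collagen crosslinker, separated upward (1.55 ± 0.76) and Acta2, a myofibroblast gene, did not (1.18 ± 0.75). Interferon genes had 26 tested with a median of -0.17, and Ifi44 was lower without overlap at 1.94, 3.39 and 2.35 CPM against 0.529, 1.11 and 1.05 CPM (-1.31 ± 0.54). H2-Aa, an MHC class II gene, was at 11.2, 37.3 and 20.8 CPM against 7.94, 10.1 and 18 CPM (-0.88 ± 0.39).

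Secreted hepatocyte proteins had a median of 0.01 over 24 tested, with 19 intervals within 1. Their summed level was 118000, 159000 and 118000 CPM in null and 130000, 122000 and 144000 CPM in siAATF-labelled libraries. Among drug-metabolising genes, Cyp3a13 was lower without overlap at 136, 146 and 181 CPM against 124, 92.5 and 99.3 CPM (-0.55 ± 0.27), as was Cyp2c54 (-0.55 ± 0.33). Genes of the periportal zone, next to the incoming blood, had a median of 0.26 over 18 tested, and pericentral genes -0.09 over 17. Glul, which marks the innermost pericentral cells, was at -0.08 ± 0.28.

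Glutathione and NRF2 target genes had a median of 0.15, with 20 of 25 above 0. Nqo1, a classic NRF2 target, was at -0.01 ± 0.44, and Gsta1 had 0 counts in null and 6 in siAATF-labelled libraries, all in replicate 2. Oxidative phosphorylation genes had a median of 0.13 and 27 of 31 intervals within 1. Cell cycle genes had a median of -0.21 over 20 tested, and Ccnb2, a mitotic cyclin, was lower without overlap at 1.14, 3.39 and 1.65 CPM against 1.06, 0.308 and 0.836 CPM. Egr1, an immediate early gene, stood at 72.7, 8.47 and 6.18 CPM against 32.5, 9.54 and 3.55 CPM, high in replicate 1 of both groups.

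Over the 39 lists, 734 distinct genes were tested, of which 17 (2.32%) were higher and 9 (1.23%) lower at an unadjusted p under 0.05, beside 1.06% and 1.32% of all genes. Of the same genes, 32 (4.36%) separated upward and 24 (3.27%) downward, beside 4.25% and 4.32% of all genes. The share higher at the unadjusted p was above that of all genes, and the share higher without overlap was close to it. Over all genes, 2.39% had an unadjusted p under 0.05 in either direction, fewer than a threshold of 0.05 passes when nothing differs. That share depends on the fit: it rests on 285 genes, and limma-voom gave 469 of 11934. With the chow libraries fitted alone, edgeR's quasi-likelihood test gave 394 of 11640 genes, and a smallest adjusted p of 0.23. The lists were chosen with earlier results of these data known, so their shares are no support for a difference. A further 100 list entries were not tested, all for low counts or none; some of them, such as B2m, Timp1 and Ciart, sit within the span of another gene and have 0 counts. Of 28 ER stress and integrated stress response genes tested, 22 were above 0, and 3 had an unadjusted p under 0.05, all higher, beside 1.06% of all genes: Atf5 (0.70 ± 0.31), Slc3a2 (0.48 ± 0.21) and Hspa5 (0.74 ± 0.34), where 81.0% of the span of Hspa5 overlaps a neighbour. Hspa5, the main ER chaperone, was highest in siAATF-labelled replicate 3, at 367 CPM, against 119 to 169 CPM in the other 5.

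**Figure D4:**
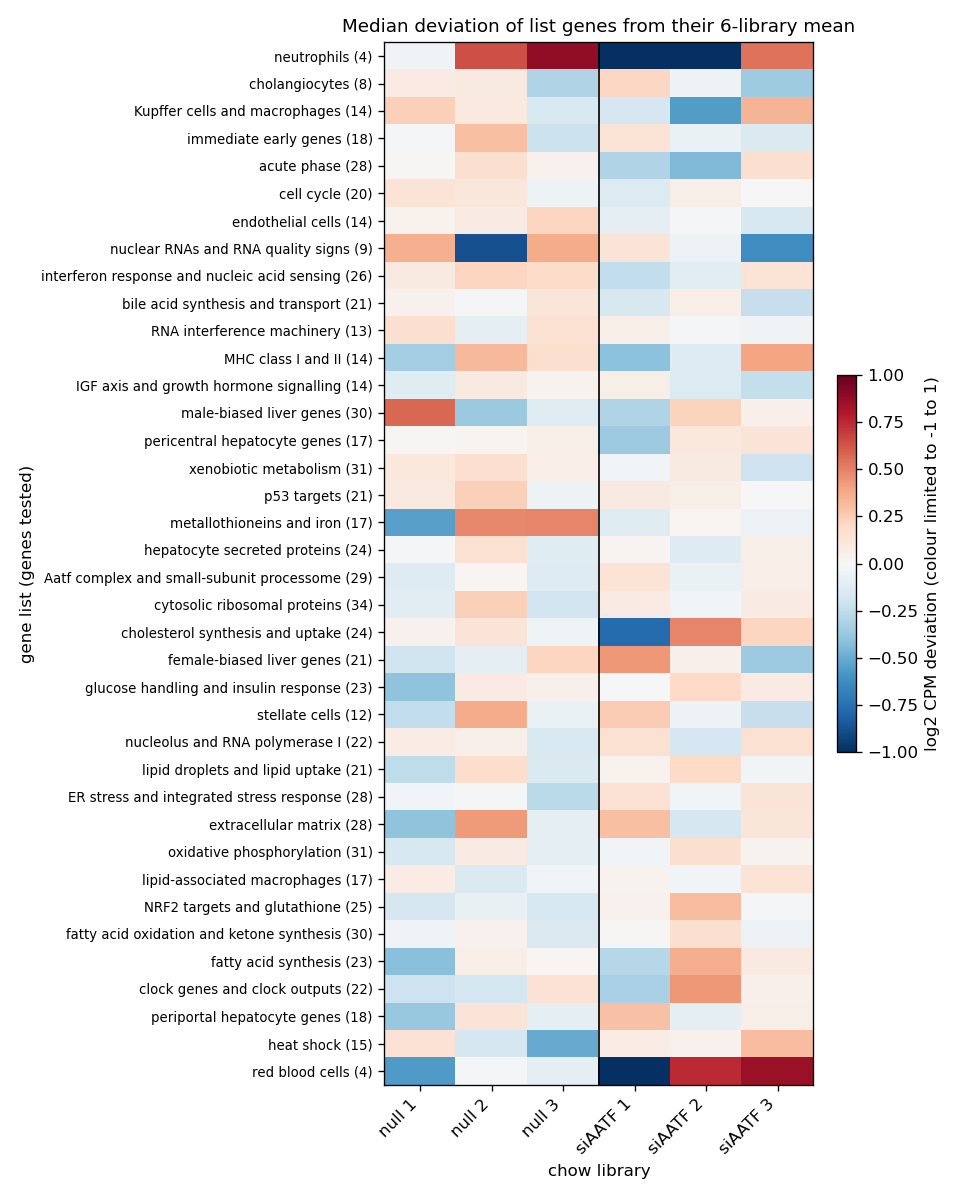
Median deviation of each list's genes from their mean over the 6 chow libraries, in log2 CPM (colour, limited to 1 in either direction), for lists with at least 4 genes tested, ordered by median fold change; the black line divides null from siAATF-labelled libraries. Replicates of a group can differ in colour, as in cholesterol synthesis, where siAATF-labelled replicate 1 is at -0.77 and replicate 2 at 0.49.

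The Western diet libraries, which use other controls, were compared for the same vector labels. There 104 genes (0.871%) passed the threshold. On chow those 104 genes had a median absolute log2 fold change of 0.336, against 2.08 on the Western diet, and 74 of them had the opposite sign. The share of opposite signs over all genes was not counted. Over all tested genes the log2 fold changes on the 2 diets had a Spearman correlation of -0.187. For 42 of the 104 the chow interval lay within 1, beside 53.4% of all genes. The genes higher on the Western diet had a chow median of -0.381, and those lower 0.171.

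The interaction test, which asks whether the vector comparison differs between diets, called 23 genes (0.193%), 20 of them with opposite signs on the 2 diets. Genes are picked here by the difference between the diets, which favours opposite signs, so the 20 are no support for a reversal. Some of the chow values were small beside their SE, as for Gpnmb at 0.13 ± 0.92 on chow. Apoa4, an apolipoprotein of lipid-loaded liver, stood at 99.8, 203 and 119 CPM in chow null and 234, 162 and 183 CPM in chow siAATF-labelled libraries, overlapping, with a log2 fold change of 0.46 ± 0.31 on chow and -2.62 on the Western diet (edgeR's quasi-likelihood test, interaction adjusted p = 0.00837). Hsd3b5, at 0.06 ± 0.35 on chow, was at 6.54 on the Western diet (edgeR interaction adjusted p = 0.000278), with a Western null mean of 0.718 CPM. Gstm3, a glutathione transferase whose near-identical relatives make its counts uncertain, was at -0.11 ± 0.36 on chow and -4.51 on the Western diet (edgeR interaction adjusted p = 0.00363). Haus8, a spindle gene, was at 0.85 ± 0.35 on chow, where it rested on 36 and 80 counts, and -2.54 on the Western diet (edgeR interaction adjusted p = 0.00476).

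Of the 104 Western genes, 7 had an unadjusted p under 0.05 on chow, beside 2.39% of all genes (Cerkl, Fndc10, Haus8, Nrp1, Gm39583, Lgals1 and H2-Aa), and H2-Aa, at -0.88 on chow and -2.21 on the Western diet, was the one with the same sign. Over all tested genes the log2 fold changes on the 2 diets had a Pearson correlation of -0.155 and a Spearman correlation of -0.187, across genes, which are not independent. Without chow null replicate 1 these were 0.00454 and -0.0461, and without siAATF-labelled replicate 2 they were -0.0496 and -0.084. Spearman's value stayed negative without each of the 6 chow libraries in turn. With no low-count filter the values were -0.02 and -0.0747 with every library kept, so their size depends on the filter as well as on those 2 libraries.

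**Figure D5:**
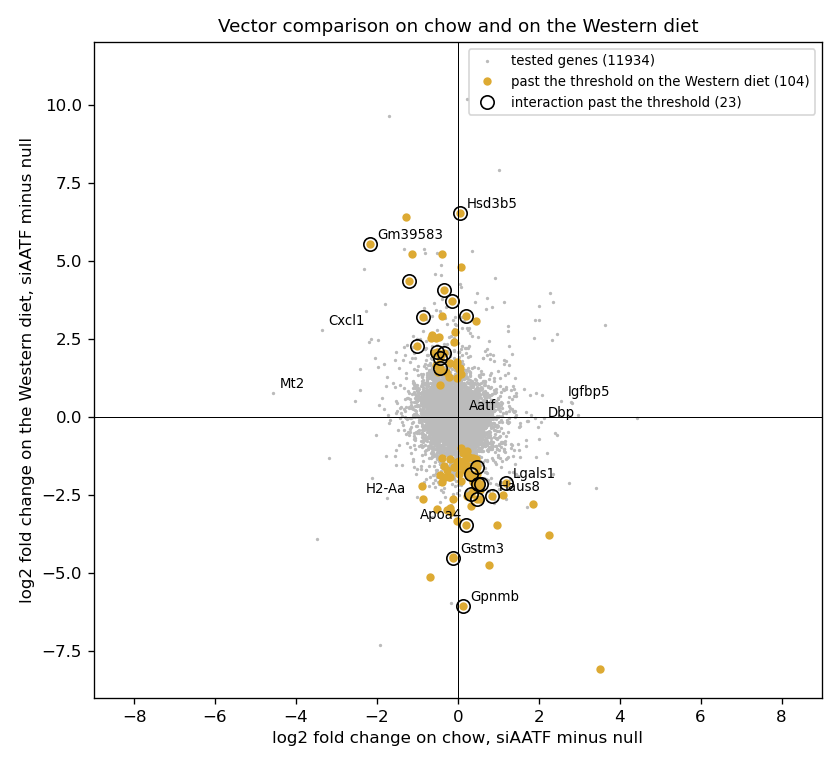
log2 fold change, siAATF-labelled minus null, on chow (horizontal) and on the Western diet (vertical) for 11934 genes; filled points passed the threshold on the Western diet (104) and rings passed the interaction test (23). For 42 of the 104 the chow interval lies within 1, beside 53.4% of all genes. On chow Igfbp5 is at 2.56 and Mt2 at -4.56, and neither passed on the Western diet.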

How the data were processed

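RNA sequencing counts per gene were deposited for 12 libraries. The extraction kit yields DNA and RNA together and SMART-Seq was the library kit, per the labels' protocols. The tools named, per the submitters' processing notes, are STAR 2.7.11 (an aligner), featureCounts 2.0.1 (a read counter), DESeq2 1.42.0 and R 4.3.2, with the build GRCm39. The settings for strand and for reads shared by genes were not given in the sources used here. In the deposited counts a gene's length is its whole span, so introns count, and 10408 genes inside another gene are all at 0.

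From the counts, edgeR 4.0.16 in R 4.3.3 (filterByExpr, TMM, robust quasi-likelihood) was fitted to all 12 libraries with 1 mean per group, and p-values were adjusted over 11934 tested genes at a threshold of 0.05. limma 3.58.1 and DESeq2 1.42.0 were alternatives, with other filters, thinning, a replicate block and leaving out each library. The fit was checked on simulated data. CPM use TMM library sizes. The floor of 3 counts covers counting error only, as no molecular identifiers are named. Of the tested genes, 46.8% overlap a neighbour in part. Genes were named by rule: Aatf, the 10 higher and 10 lower by p with at least 5 CPM in the higher group and no predicted-gene symbol (such as Gm and digits), up to 3 per list by p, the leading interaction and Western genes, and a set of known genes. The members and lists were chosen with earlier results of these data known, and further list members were named after their values were seen. Promoter windows are from RefSeq on GRCm38.p6 (4 of 4 genes found).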

Additional observations from a re-analysis of the deposited data

Results flagged for a closer look

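Of the 23 genes past the interaction threshold, 10 were picked by the naming rule. For these the vector comparison differed between the diets by the interaction test of edgeR's quasi-likelihood fit, given as the Western log2 fold change minus the chow one. They were Hsd3b5 (6.48), Gstm3 (-4.39), Haus8 (-3.38), Apoa4 (-3.08), Gm39583 (7.69), Mgst3 (-2.73), Anxa5 (-2.15), Grm8 (3.87), Cadm4 (3.01) and Gpnmb (-6.17). On chow, Gm39583, a predicted gene, was lower without overlap (-2.16 ± 0.52), and the other 9 had chow log2 fold changes from -0.14 to 0.85. Hsd3b5 and Gstm3 passed under all 20 settings tried. The other 8 were all lost without chow null replicate 3. Apoa4 was lost under no other setting and Haus8 at equal depth as well. Of the 20 settings, Grm8 and Anxa5 were lost under 4, Gm39583 and Mgst3 under 5, Gpnmb under 10 and Cadm4 under 11.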

How the results depend on the processing

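Among settings with at least 2 libraries in each group, 0 genes passed on chow under all but 2. With no low-count filter 33 passed (17 higher and 16 lower, of 22289 genes), 8 of them list members, and with the DESeq2 Wald test 1 (Igfbp5). A setting without libraries over 25% 18S kept only 1 chow null library, replicate 3, so its calls are not given. Leaving out each chow library in turn gave 0 to 0 called, and unadjusted calls from 145 (without siAATF replicate 3) to 560 (without null replicate 2). The log2 fold change of Aatf ran from 0.01 to 0.38. Deviations of same-numbered chow libraries had Pearson correlations of 0.259, 0.0179 and -0.079 for replicates 1, 2 and 3. The value for replicate 1 was the highest of any null and siAATF-labelled pair. The replicate block gave 0 called on chow, 64 on the Western diet and 14 for the interaction, and equal depth gave 14 for the interaction. With no filter the Western diet gave 572 and the interaction 331 calls, and with DESeq2 285 and 124. Leaving out 1 library gave 26 to 413 Western calls and 2 to 295 interaction calls; the lowest interaction count was without chow null replicate 3 and the highest of both without Western siAATF replicate 3. At equal depth Haus8 on chow turned to -0.37. The cause was not tested. Trem2 (3 and 4 counts) and Mmp12 (1 and 1) lay near the floor of 3 counts, where no difference was detectable at this depth.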
